A study of Mus musculus with 18 samples.

Results

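This comparison sets C2C12 myotubes that received an shRNA against Nup210 directly against C2C12 myotubes that received an shRNA against Mef2c. The members were the 6 arrays titled Nup210 shRNA and the 6 titled Mef2c shRNA, 12 of the 18 arrays in the series, and all 22180 genes with a probe set of a single gene symbol were read on them. The other 6 arrays carried a control scramble shRNA. They stayed out of every contrast, and their level is given beside it. They also entered the estimate of spread in the fit described below, and the choice of probe set for each gene. C2C12 is an established line of mouse myoblasts, whose cells fuse into long myotubes with many nuclei once serum is lowered. All groups were grown in 20% FBS and moved to 2% horse serum to differentiate. Lentivirus carrying the short hairpin RNA was added 36 h after that switch, and RNA was taken 48 h after infection. All 3 groups are therefore infected cultures of the same line, with no uninfected sample among them. How many hairpins were used per target, and their sequence, is not stated in the labels.

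Nup210 is a membrane glycoprotein of the nuclear pore complex, the channel through which molecules pass between nucleus and cytoplasm. It appears as myoblasts differentiate. Mef2c is a transcription factor of the MEF2 family, which binds an A/T-rich site beside many muscle genes and works together with the myogenic factors MyoD and myogenin. In muscle cells Nup210 has been reported to act at the pore with Mef2c, through the cofactor Trip6. The direct comparison asks which genes are expressed at different levels when one or the other of these genes is targeted.

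All values are deposited log2 levels from RMA, so a difference of 1 is 2-fold. Adjusted p-values are from a limma fit with Benjamini-Hochberg adjustment over all genes, and a gene is called when that value is under 0.05. Higher and lower always describe Nup210 shRNA relative to Mef2c shRNA. Array medians ran from 5.48 to 5.57. Background was taken as 5.47, the 95th percentile of 1390 odorant and pheromone receptor genes, and 58.7% of genes exceeded it. The number of arrays limits the precision, with a median standard error (SE) of 0.080. The labels do not state whether arrays of one group had separate cultures as their source. The p-values therefore cover only the spread among arrays, which in the limma fit includes the control arrays. Part or all of that spread may be technical. The Nup210 shRNA arrays 2, 4 and 5 had the lowest estimated array weights, 0.724, 0.621 and 0.744. Counts and calls that changed without them are given beside the result or with the processing alternatives.

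Mef2c separated the groups as the labels state. Its brighter probe set ran from 10.08 to 10.57 (median 10.30) in the Nup210 shRNA arrays and from 7.51 to 8.08 (median 7.97) in the Mef2c shRNA arrays, with a control mean of 10.39. No array of one group reached the other. The Mef2c shRNA arrays stood at 19.02% of the Nup210 shRNA level, and an exact two-sided permutation test over all 924 splits of 6 against 6 gave p = 0.00216, the smallest p it allows (0.00325 adjusted over the 3 probe sets of targeted genes). The dimmer probe set stood at 32.6% with the same exact permutation p.

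Nup210 was dim in both groups. Its only probe set ran from 5.54 to 5.79 (median 5.63) in the Nup210 shRNA arrays and from 5.79 to 6.08 (median 5.82) in the Mef2c shRNA arrays. The highest Nup210 shRNA array just passed the lowest Mef2c shRNA array, and the control arrays, from 5.57 to 5.81, lay across both. The difference of -0.23 had an exact permutation p of 0.00433 and a limma adjusted p of 0.0178. Relative to the control mean of 5.75, the Nup210 shRNA mean stood at -0.10 and the Mef2c shRNA mean at 0.13. This probe set lay close to the background of 5.47 in all groups, and the cause of its small difference was not tested. The limma call of Nup210 was lost without Nup210 shRNA arrays 2, 4 and 5 (adjusted p = 0.174). Trip6 ran from 7.65 to 7.80 in the Nup210 shRNA arrays and from 7.65 to 7.74 in the Mef2c shRNA arrays, with a difference of 0.03 (adjusted p = 0.726).

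Of the 22180 genes, 3113 were called, a share of 14.0%. Those higher in Nup210 shRNA numbered 1575 (7.1%) and those lower numbered 1538 (6.93%). With dim genes left out, 1849 higher and 1784 lower were called among 13010 genes, larger shares than over all genes. Most gene lists below hold mainly genes above background. A list share modestly over that of all genes is therefore no excess over brighter genes. Most differences were small: 99 of the higher and 109 of the lower genes differed by at least 1.5-fold, and 8 and 13 by at least 2-fold. In 1912 genes (8.62%) no array of one group overlapped the other, 969 of them called higher and 886 called lower. The first principal component of the 12 arrays held 22.2% of the variance and ran from 7.93 to 15.98 in the Nup210 shRNA arrays and from -15.18 to -10.24 in the Mef2c shRNA arrays. The calls numbered 1093 higher and 995 lower without Nup210 shRNA arrays 2, 4 and 5. With only the 12 arrays of the shRNA groups in the fit, they numbered 1229 and 1228.

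**Figure D1:**
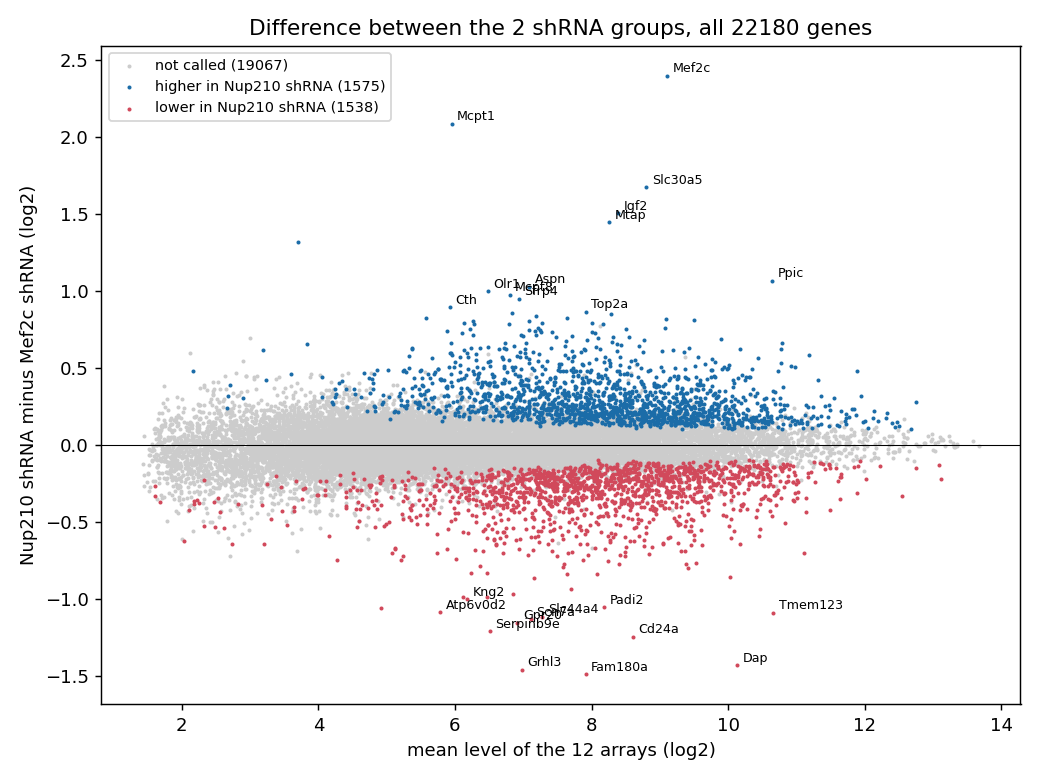
Difference between the groups (Nup210 shRNA minus Mef2c shRNA, log2) against the mean level of the 12 arrays (log2), 1 point per gene, with called genes coloured and the 12 largest named differences in each direction labelled. Mef2c at 2.39 is the largest labelled difference, and most of the 3113 called genes lie within 1 log2 unit of 0.

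The control mean lay between the group means for 1026 of the 1575 higher and 1083 of the 1538 lower genes. Among the higher genes it lay nearer the Nup210 shRNA mean in 1102 and nearer the Mef2c shRNA mean in 473. Among the lower genes the numbers were 664 and 874. A difference between the shRNA groups thus had no single pattern of levels relative to the controls.

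Apart from Mef2c itself and the dim Mcpt1, described after them, the genes furthest above their Mef2c shRNA level encoded a zinc transporter, a growth factor and a metabolic enzyme. Slc30a5, a zinc transporter of the secretory pathway, ran from 9.53 to 9.75 (median 9.64) in the Nup210 shRNA arrays and from 7.82 to 8.12 (median 7.97) in the Mef2c shRNA arrays. Igf2, a fetal growth factor made by differentiating myoblasts, ran from 8.88 to 9.44 (median 9.13) and from 7.49 to 7.85 (median 7.61). Mtap, which salvages methionine and adenine from methylthioadenosine, ran from 8.94 to 9.06 (median 8.97) and from 7.48 to 7.66 (median 7.51). In each gene all Nup210 shRNA arrays lay above all Mef2c shRNA arrays, which the rule for the largest named differences required. The differences were 1.67 ± 0.05 (SE) for Slc30a5 (3.19-fold, adjusted p = 6.95e-13), 1.5 ± 0.10 for Igf2 (2.83-fold, adjusted p = 1.4e-08) and 1.44 ± 0.05 for Mtap (2.72-fold, adjusted p = 6.95e-13). The control means were 9.60, 9.06 and 8.84, close to the Nup210 shRNA level.

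Ppic, a cyclophilin of the secretory pathway, ran from 11.14 to 11.20 (median 11.19) against 10.01 to 10.28 (median 10.09), a difference of 1.06 (2.09-fold, adjusted p = 3.66e-11). Mcpt1, a mast cell chymase, ran from 6.25 to 7.79 (median 6.89) against 4.58 to 5.07 (median 4.97), and its control mean of 5.18 lay below background too. It was therefore the Nup210 shRNA arrays that read Mcpt1 above background. Its difference of 2.08 is set against a dim level, and Mcpt1, Mcpt4 and Mcpt8 belong to a family of related proteases whose probes may share targets. Aspn, a small leucine-rich matrix proteoglycan, Olr1, a receptor for oxidised lipoprotein, and Mcpt8 differed by 1.03, 1.0 and 0.97. Sfrp4, a secreted Wnt inhibitor, Cth, which makes cysteine from cystathionine, and Top2a, the topoisomerase that untangles mitotic chromosomes, differed by 0.95, 0.89 and 0.86. All of these genes were picked among those without overlap between the groups.

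The genes furthest below their Mef2c shRNA level included a death-associated protein, a cell surface glycoprotein and an epithelial transcription factor. Dap, a regulator of autophagy, ran from 9.10 to 9.55 (median 9.50) in the Nup210 shRNA arrays and from 10.78 to 10.95 (median 10.85) in the Mef2c shRNA arrays. Grhl3, a grainyhead-like factor known from epidermis, ran from 5.79 to 6.68 (median 6.22) against 7.11 to 8.09 (median 7.80). Cd24a, a glycoprotein of progenitor cell surfaces, ran from 7.42 to 8.33 (median 8.13) against 8.95 to 9.50 (median 9.22). In each gene every Nup210 shRNA array lay below every Mef2c shRNA array, as the same rule required. The differences were -1.43 ± 0.07 (SE) for Dap (adjusted p = 9.9e-11), -1.46 ± 0.17 for Grhl3 (adjusted p = 1.27e-05) and -1.25 ± 0.15 for Cd24a (adjusted p = 1.34e-05), and a second Cd24a probe set gave -1.33. The control mean of Dap, 10.88, was close to the Mef2c shRNA level, whereas that of Grhl3, 7.27, lay between the groups.

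Fam180a ran from 6.48 to 8.06 (median 7.14) against 8.29 to 9.01 (median 8.70), the largest fall of the named genes at -1.49 and also among the most scattered, with an SE of 0.24. Tmem123, a surface glycoprotein linked to cell death, ran from 9.84 to 10.29 (median 10.17) against 11.14 to 11.30 (median 11.21), a difference of -1.09 (adjusted p = 1.24e-08). Serpinb9e, a serine protease inhibitor from a cluster of near-identical genes, differed by -1.21, and its probes may read neighbouring copies. The orphan receptor Gpr20, the sodium channel Scn7a and the choline transporter-like Slc44a4 differed by -1.16, -1.13 and -1.12. Kng2, a kininogen, differed by -1.0. Atp6v0d2, a proton pump subunit, differed by -1.09, with a median of 6.37 in the Mef2c shRNA arrays and of 5.16, below background, in the Nup210 shRNA arrays, so the size of this difference is uncertain. Padi2, which converts arginine to citrulline in proteins, differed by -1.06, whereas a second, dimmer probe set of Padi2 gave -0.20 (adjusted p = 0.0199).

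**Figure D2:**
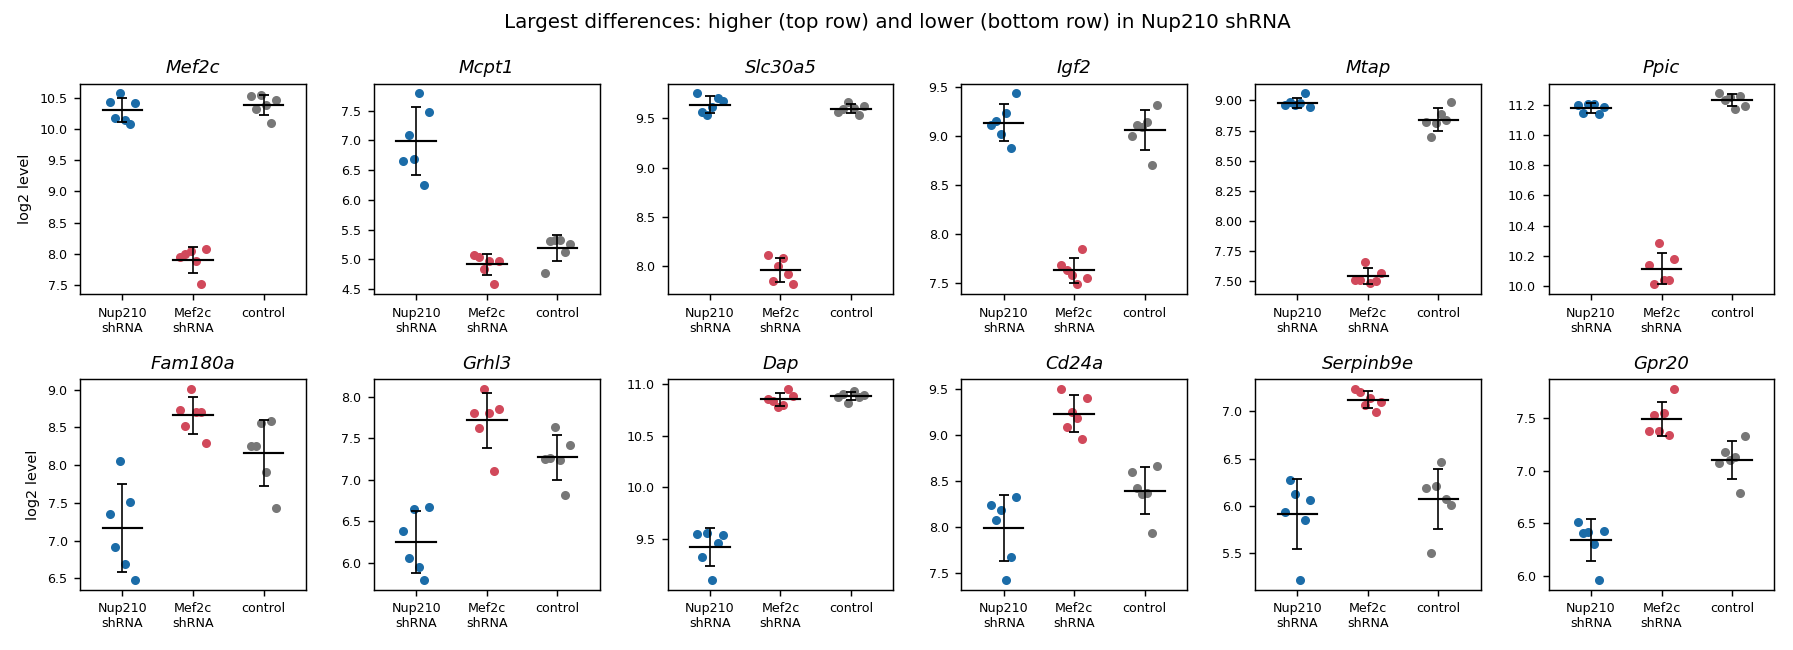
Log2 level of 12 genes in each array of the Nup210 shRNA, Mef2c shRNA and control groups, 6 points per group, with the mean (line) and SD (bar). The top row holds the 6 largest named differences above and the bottom row the 6 largest below the Mef2c shRNA level. The genes were chosen among those whose 2 shRNA groups do not overlap.

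Of the 41 gene lists, those for mitosis and S phase held the largest shares of called genes. Dividing cells copy their DNA in S phase with the MCM helicase and its partners and separate the copies in mitosis with cyclin B, kinesins and the kinetochore, and myoblasts leave this cycle when they become myotubes. Of 30 mitosis genes measured, 26 were higher in Nup210 shRNA than in Mef2c shRNA (86.7%, beside 7.1% of all genes) and 0 were lower. All 30 differences were positive, with a median of 0.65 beside 0.00 over all genes. Of the 30, 24 did not overlap between groups, beside 8.62% of all genes. Of 32 S phase genes, 24 were higher (75.0%, beside 7.1% of all genes) and 0 lower, with a median of 0.33. The mean level of the mitosis genes ran from 7.54 to 7.74 in the Nup210 shRNA arrays, from 6.95 to 7.13 in the Mef2c shRNA arrays and from 7.48 to 7.88 in the control arrays. In bulk RNA, fewer dividing cells and less of these transcripts in each cell cannot be told apart. The counts were 24 and 18 without Nup210 shRNA arrays 2, 4 and 5.

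Mitotic cell cycle promoters often hold a CHR element together with CCAAT boxes, and S phase promoters an E2F site. Promoters are therefore shown for some mitosis genes of large difference that hold the CHR letters TTTGAA, in a choice that was not exhaustive. They are the 250 bases before the start, 5′ to 3′ in the gene's direction, from RefSeq on GRCm38.p6, with each match on either strand in capitals. Top2a lies at chr11:99024190-99024439 (minus strand); Kif11 lies at chr19:37376132-37376381 (plus strand), Ccnb2 at chr9:70421555-70421804 (minus strand), Kif2c at chr4:117178773-117179022 (minus strand).
Top2a: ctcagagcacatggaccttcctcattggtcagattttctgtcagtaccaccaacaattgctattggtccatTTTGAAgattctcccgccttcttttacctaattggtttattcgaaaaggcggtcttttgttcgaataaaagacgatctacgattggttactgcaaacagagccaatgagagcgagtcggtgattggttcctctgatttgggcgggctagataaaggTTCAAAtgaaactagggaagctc
Kif11: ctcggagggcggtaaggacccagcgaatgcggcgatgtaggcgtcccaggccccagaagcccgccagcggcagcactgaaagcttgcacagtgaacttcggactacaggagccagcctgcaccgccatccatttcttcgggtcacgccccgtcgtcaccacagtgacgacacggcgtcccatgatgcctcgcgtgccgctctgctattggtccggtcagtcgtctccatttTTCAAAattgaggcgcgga
Ccnb2: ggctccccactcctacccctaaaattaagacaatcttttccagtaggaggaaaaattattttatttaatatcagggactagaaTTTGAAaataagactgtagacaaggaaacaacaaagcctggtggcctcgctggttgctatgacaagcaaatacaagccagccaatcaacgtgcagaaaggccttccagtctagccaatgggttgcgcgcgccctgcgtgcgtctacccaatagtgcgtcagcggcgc
Kif2c: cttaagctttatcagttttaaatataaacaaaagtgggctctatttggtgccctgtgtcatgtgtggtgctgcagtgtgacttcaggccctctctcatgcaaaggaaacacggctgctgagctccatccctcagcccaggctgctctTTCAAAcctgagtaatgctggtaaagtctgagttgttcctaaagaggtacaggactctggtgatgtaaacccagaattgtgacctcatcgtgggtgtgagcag

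Some S phase genes of large difference with an E2F match are shown likewise, again without an exhaustive choice. The letters TTTCCCGC, TTTCGCGC, TTTGCCGC or TTTGGCGC on either strand are in capitals, overlapping matches joined. Mcm6 lies at chr1:128359706-128359955 (minus strand), Mcm7 at chr5:138171884-138172133 (minus strand), Cdc6 at chr11:98907901-98908150 (plus strand).
Mcm6: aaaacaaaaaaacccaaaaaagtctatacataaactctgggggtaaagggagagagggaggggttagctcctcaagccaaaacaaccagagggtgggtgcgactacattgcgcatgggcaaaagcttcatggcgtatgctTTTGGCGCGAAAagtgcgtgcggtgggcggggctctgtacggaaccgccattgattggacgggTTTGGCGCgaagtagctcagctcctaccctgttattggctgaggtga
Mcm7: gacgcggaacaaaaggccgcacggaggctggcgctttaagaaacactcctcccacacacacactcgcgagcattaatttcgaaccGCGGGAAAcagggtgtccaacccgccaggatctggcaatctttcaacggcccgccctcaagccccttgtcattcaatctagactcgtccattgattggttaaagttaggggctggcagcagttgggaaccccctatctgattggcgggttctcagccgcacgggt
Cdc6: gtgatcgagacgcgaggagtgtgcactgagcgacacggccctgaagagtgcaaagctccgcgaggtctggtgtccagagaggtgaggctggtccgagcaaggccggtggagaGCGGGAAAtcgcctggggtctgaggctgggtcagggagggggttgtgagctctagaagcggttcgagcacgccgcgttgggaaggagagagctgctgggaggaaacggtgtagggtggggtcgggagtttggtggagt

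The RefSeq promoter table held 24 of the 30 mitosis genes, with 26 promoters, and 27 of the 32 S phase genes, with 31. TTTGAA stood in 11 of the 26 mitosis promoters (42.3%), beside 16.0% of all 32851 promoters in the table. CCAAT on either strand stood in 20 of the 26 (76.9%), beside 33.8% of all. An E2F match stood in 7 of the 31 S phase promoters (22.6%), beside 1.86% of all. Among promoters of all genes called higher, the shares were 12.1% for TTTGAA, 39.4% for CCAAT and 4.61% for E2F. Among those called lower they were 9.33%, 32.4% and 1.83%. Top2a held CCAAT 6 times and Ccnb2 3 times, whereas Kif2c held it 0 times in this window. These are matches of letters, described here without any measure of binding.

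Nuf2, a kinetochore subunit, ran from 7.87 to 8.24 (median 8.04) in the Nup210 shRNA arrays and from 7.13 to 7.34 (median 7.25) in the Mef2c shRNA arrays. Bub1, a kinase of the spindle checkpoint, ran from 6.29 to 7.02 (median 6.68) against 5.70 to 5.98 (median 5.92). Top2a ran from 8.20 to 8.47 (median 8.36) against 7.36 to 7.63 (median 7.45). In these 3 genes the groups stood apart, with differences of 0.82, 0.80 and 0.86 and adjusted p-values of 1.42e-06, 9.57e-05 and 2.9e-07. Of the members outside the rule for named genes, chosen after their values were seen, Ndc80 differed by 0.79, Kif23 by 0.74, Ccnb2 and Kif11 by 0.71 each, Cdc20 by 0.67, Cdk1 by 0.49 and Foxm1 by 0.31. The 4 mitosis genes not called were Mki67 at 0.77, Cenpe at 0.59, Cenpf at 0.36 and Bub3 at 0.09.

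Among S phase genes the MCM helicase subunits led. Mcm6 ran from 8.14 to 8.32 (median 8.19) against 7.47 to 7.76 (median 7.60), and Mcm3 from 7.95 to 8.14 (median 8.01) against 7.29 to 7.55 (median 7.40). Both groups stood apart, and the differences were 0.62 (adjusted p = 1.01e-07) and 0.61 (adjusted p = 4.24e-05). The licensing factor Cdc6 differed by 0.51, cyclin E1 (Ccne1) by 0.45 and the transcription factor E2f1 by 0.33, all called, while Mcm2 at 0.12 and Rrm1 at -0.04 were not.

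Of the 9 histone genes measured from a list of 20, 5 were higher (55.6%, beside 7.1% of all genes) and 0 lower, with a median of 0.43. H2ax, the variant phosphorylated at DNA breaks, ran from 8.29 to 8.74 (median 8.54) against 7.75 to 8.15 (median 8.02), and H2bc3 differed by 0.54. H1f5 differed by 0.58 and lost its call without Nup210 shRNA arrays 2, 4 and 5 (adjusted p = 0.0532), where 2 histone genes were called. The count of lower histone genes became 1 without Nup210 shRNA array 1 or 3 or Mef2c shRNA array 5.

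Of 15 genes for D cyclins, CDK inhibitors and the Rb family, 6 were higher (40.0%, beside 7.1% of all genes) and 0 lower. Members of both opposing kinds were among them. The kinases Cdk6 and Cdk4 differed by 0.38 and 0.26, and cyclin D2 (Ccnd2) by 0.40. The inhibitor Cdkn1c, p57, ran from 6.95 to 7.24 (median 7.01) against 6.33 to 6.55 (median 6.44), a difference of 0.62 (adjusted p = 6.03e-07) with no overlap, and the inhibitor Cdkn2c differed by 0.27. Cdkn1a (p21) at 0.05, Ccnd1 at 0.00 and Rb1 at -0.07 were not called. The Ccnd2 call, at an adjusted p of 0.0356, was lost on leaving out any of Nup210 shRNA arrays 1, 2, 4 and 6 or Mef2c shRNA arrays 1, 2, 3 and 5, with adjusted p-values up to 0.0879, and 0.169 without Nup210 shRNA arrays 2, 4 and 5 together. The count of lower genes became 1 without Nup210 shRNA array 3 and 2 without Mef2c shRNA array 5.

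**Figure D3:**
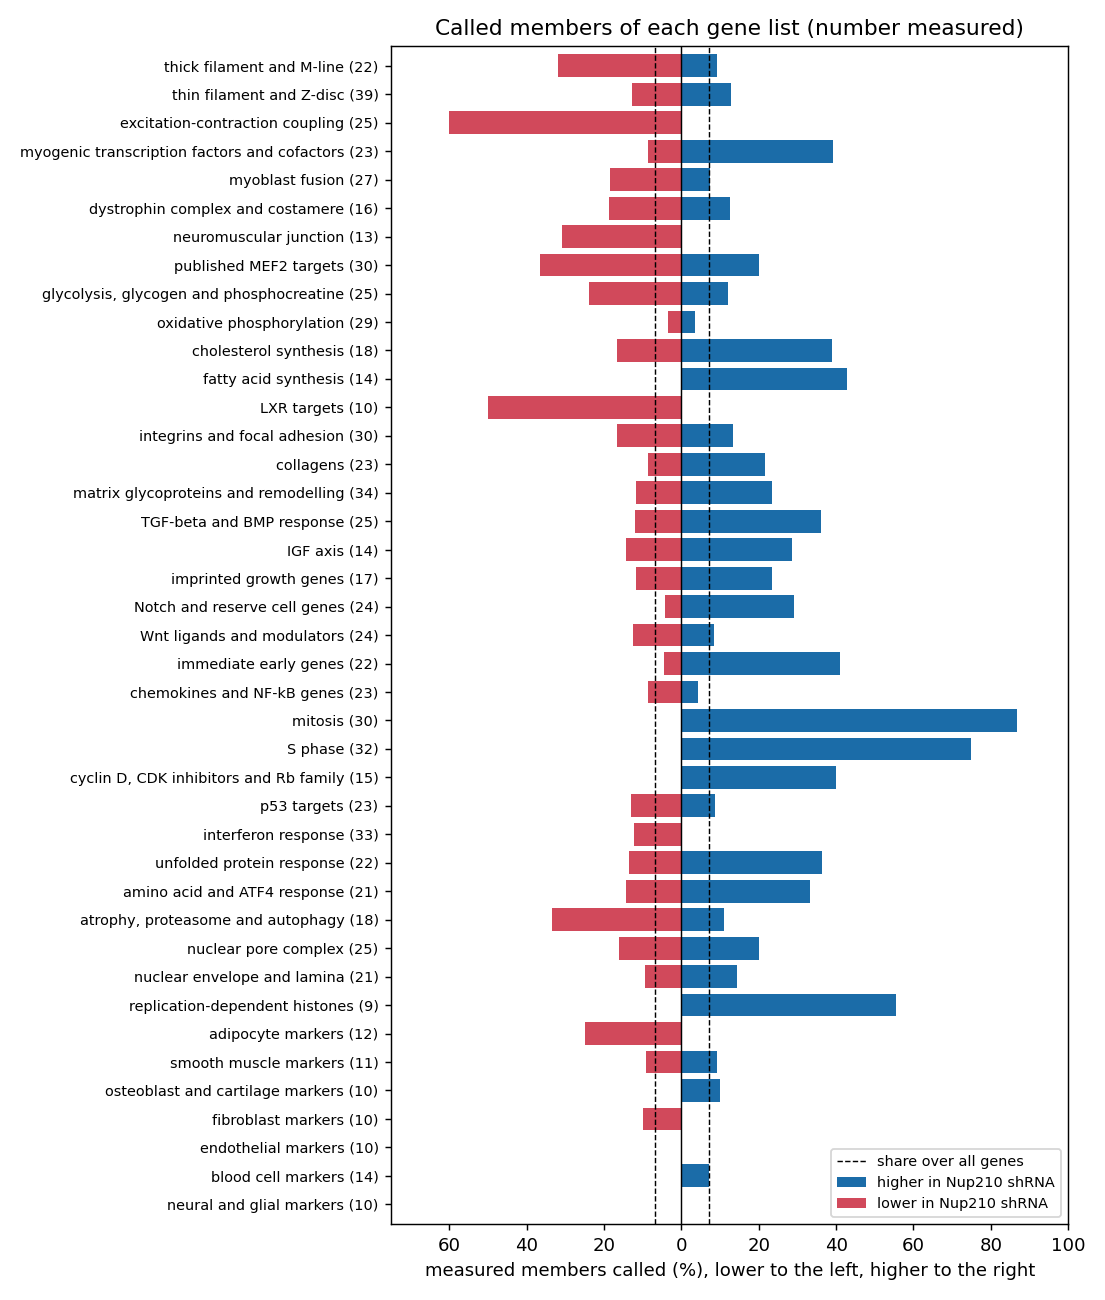
Share of measured members called higher (right, %) or lower (left, %) in Nup210 shRNA for each of 41 gene lists, with the number measured in parentheses and the share over all genes dashed. Mitosis reaches 86.7% and S phase 75.0% on the right, and excitation-contraction coupling reaches 60.0% on the left.

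Genes of excitation-contraction coupling, which turn an electrical signal at the membrane into calcium release, lay the other way. Of 25 measured, 15 were lower in Nup210 shRNA (60.0%, beside 6.93% of all genes) and 0 higher, with a median of -0.21. Of the 25, 8 did not overlap between groups, beside 8.62% of all genes. The calcium-handling genes Hrc, Mrln and Sln showed the largest called differences. Hrc, which binds calcium in the sarcoplasmic reticulum, ran from 7.96 to 8.57 (median 8.27) against 8.70 to 9.0 (median 8.89). Mrln, the micropeptide myoregulin that inhibits the calcium pump, ran from 7.14 to 7.65 (median 7.51) against 7.97 to 8.12 (median 8.09). Neither gene overlapped between groups. The differences were -0.63 (adjusted p = 5.54e-05) and -0.59 (adjusted p = 7.07e-06). Sln, sarcolipin, lay below background in both groups, at medians of 4.37 and 4.82.

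Outside the rule for named genes, the voltage sensor Cacna1s differed by -0.39, the calcium pump Atp2a1 by -0.36, the chloride channel Clcn1 and the adaptor Stac3 by -0.33 each, and the release channel Ryr1 by -0.19. Casq1 at 0.13 and Trdn at -0.67 were not called. The mean level of the list ran from 8.61 to 8.83 in the Nup210 shRNA arrays, from 8.93 to 9.0 in the Mef2c shRNA arrays and from 8.84 to 8.91 in the controls, so the Nup210 shRNA arrays all lay lowest. Without Nup210 shRNA arrays 2, 4 and 5, 10 members were lower.

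Contractile genes were called in both directions, in the thick filament list mostly lower. Of 22 thick filament and M-line genes, 2 were higher (9.09%, beside 7.1% of all genes) and 7 lower (31.8%, beside 6.93%). Their median was -0.07, and 4 were lower without Nup210 shRNA arrays 2, 4 and 5. Myom1, which crosslinks myosin at the M-line, ran from 8.64 to 9.01 (median 8.83) against 9.36 to 9.46 (median 9.44), and Mylk2, the skeletal myosin light chain kinase, ran from 7.28 to 7.86 (median 7.68) against 8.15 to 8.40 (median 8.23). Mybpc1, the slow form of myosin-binding protein C, lay the other way, from 8.48 to 8.83 (median 8.63) against 7.68 to 8.20 (median 7.97). These genes did not overlap between groups, and their differences were -0.61, -0.64 and 0.67. The adult myosin heavy chain Myh1 differed by -0.35 and the embryonic Myh3 by 0.18, both called, while Myh7 at -0.02 was not.

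Of 39 thin filament and Z-disc genes, 5 were higher and 5 lower (12.8% each, beside 7.1% and 6.93% of all genes). Of the 39, 38 lay above background, and 12.8% was not above either share of all genes with dim genes left out. Actn2, a Z-disc actinin, ran from 9.37 to 9.68 (median 9.45) against 8.83 to 9.21 (median 8.94), and Tmod1, which caps the pointed end of actin, ran from 8.94 to 9.30 (median 9.10) against 9.53 to 9.74 (median 9.64). The groups stood apart in both genes, by 0.50 (adjusted p = 5.15e-05) and -0.53 (adjusted p = 3.01e-06). Tnni3, the cardiac troponin I, differed by -0.57, while the fast form Tnni2 at -0.01 and Tnnt3 at 0.00 were not called. The lower count became 3 without Mef2c shRNA array 1, 3 or 6, and both counts became 3 without Nup210 shRNA arrays 2, 4 and 5.

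**Figure D4:**
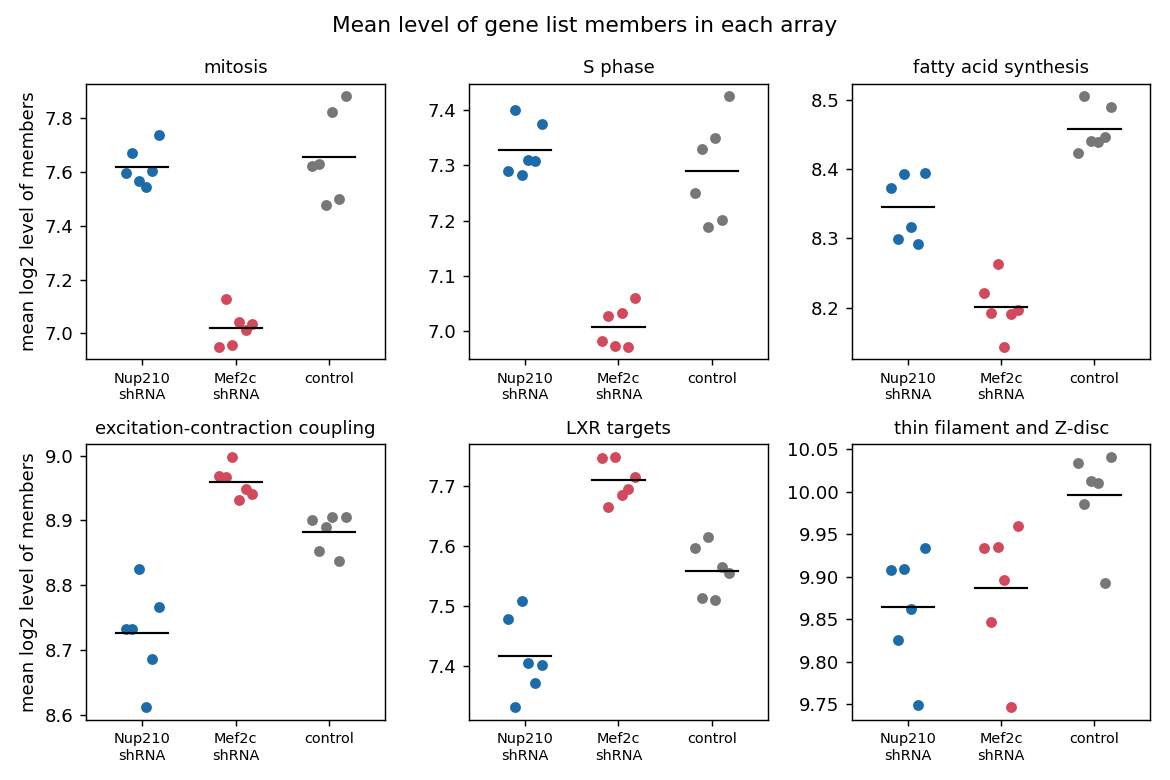
Mean log2 level of the measured members of 6 gene lists in each array of the Nup210 shRNA, Mef2c shRNA and control groups, 6 points and a mean line per group, each panel on its own scale. Mitosis, S phase and fatty acid synthesis lie above and excitation-contraction coupling and LXR targets below the Mef2c shRNA arrays without overlap, whereas the thin filament and Z-disc arrays overlap.

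A MEF2 consensus of 10 bases, searched on both strands, stood in 13 of 111 promoters (11.7%) of 87 genes from the lists for thick and thin filaments, coupling and glycolysis, beside 2.92% of all promoters. Among promoters of the genes called lower it stood in 2.44% and among those called higher in 1.43%. Some called muscle genes that hold it are shown, again without an exhaustive choice. The match is in capitals, each read on both strands of the same bases. Pgam2 lies at chr11:5803797-5804046 (minus strand), Myh1 at chr11:67199852-67200101 (plus strand), Clcn1 at chr6:42286435-42286684 (plus strand).
Pgam2: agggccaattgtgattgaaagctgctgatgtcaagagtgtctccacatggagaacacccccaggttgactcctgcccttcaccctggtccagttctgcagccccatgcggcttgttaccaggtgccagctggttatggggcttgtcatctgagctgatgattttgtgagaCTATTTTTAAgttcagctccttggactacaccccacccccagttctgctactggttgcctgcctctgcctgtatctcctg
Myh1: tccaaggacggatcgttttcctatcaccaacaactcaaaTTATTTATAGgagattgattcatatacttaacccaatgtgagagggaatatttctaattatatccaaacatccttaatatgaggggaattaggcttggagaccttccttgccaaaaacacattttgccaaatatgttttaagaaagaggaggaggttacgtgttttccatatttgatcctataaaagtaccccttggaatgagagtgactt
Clcn1: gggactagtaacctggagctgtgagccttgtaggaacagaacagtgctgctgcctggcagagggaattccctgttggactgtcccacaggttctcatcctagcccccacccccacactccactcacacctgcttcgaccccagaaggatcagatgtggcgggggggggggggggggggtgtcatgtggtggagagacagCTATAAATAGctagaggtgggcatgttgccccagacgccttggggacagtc

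Pgam2, the muscle phosphoglycerate mutase, ran from 5.93 to 6.46 (median 6.30) in the Nup210 shRNA arrays and from 6.74 to 7.11 (median 6.91) in the Mef2c shRNA arrays, without overlap. Pgam2, Myh1 and Clcn1 were thus lower in the Nup210 shRNA arrays. Relative to its control mean of 6.74, Pgam2 stood at -0.46 in Nup210 shRNA and at 0.18 in Mef2c shRNA. Of 30 genes published as MEF2 targets, 11 were lower (36.7%, beside 6.93% of all genes) and 6 higher (20.0%, beside 7.1%), with a median of -0.07, and 13 did not overlap between groups, beside 8.62% of all genes. The lower members held metabolic and contractile genes such as Pgam2 (-0.65), Slc2a4 (-0.45) and Ckm (-0.30), and the higher members held Mybpc1 (0.67), Klf4 (0.51), Jun (0.50) and Klf6 (0.31). The list of MEF2 targets shares members with the other muscle lists, so the counts are not independent.

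Of 25 genes of glycolysis, glycogen and phosphocreatine, 3 were higher (12%, beside 7.1% of all genes) and 6 lower (24%, beside 6.93%). Slc2a4, the insulin-responsive glucose transporter, ran from 5.57 to 5.94 (median 5.89) against 6.15 to 6.41 (median 6.24), and Pygm, muscle glycogen phosphorylase, differed by -0.39. The general glycolytic enzymes Pfkl, Pgk1 and Pgam1 lay the other way, at 0.32, 0.19 and 0.18. Of 29 oxidative phosphorylation genes, 1 was higher (Sdhc, 0.29) and 1 lower (Cox8b, -0.32), a share of 6.9% beside 14.0% of all genes. The higher count became 2 without Mef2c shRNA array 5. The lower count became 2 without Nup210 shRNA array 3 and 0 without any of Nup210 shRNA arrays 2, 4, 5 and 6 or Mef2c shRNA arrays 1, 3 and 6.

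Of 23 myogenic transcription factors and cofactors, 9 were higher (39.1%, beside 7.1% of all genes) and 2 lower (8.7%, beside 6.93%). Their median was 0.06, with Mef2c itself among the higher. Myf6, a late myogenic factor, ran from 6.13 to 6.36 (median 6.24) against 5.40 to 5.81 (median 5.45), and Tcf12, the E protein partner of these factors, ran from 9.92 to 10.19 (median 10.01) against 9.49 to 9.65 (median 9.61). Both stood apart, by 0.74 (adjusted p = 5.67e-06) and 0.44 (adjusted p = 6.41e-06). Myf5 and Eya4 differed by 0.34 and 0.31, and the MEF2 repressors Hdac5 and Hdac7 by -0.28 and -0.25. Without Nup210 shRNA arrays 2, 4 and 5, 3 of the 23 were higher.

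Myog ran from 12.15 to 12.32 (median 12.19) against 11.88 to 12.20 (median 12.01), and Myod1 from 10.79 to 11.06 (median 10.93) against 10.62 to 10.80 (median 10.75). These small differences of 0.17 and 0.18, with overlapping arrays, had adjusted p-values of 0.0324 and 0.0241. The Myog call was lost without any of Nup210 shRNA arrays 2, 4 and 6 or Mef2c shRNA arrays 1, 2, 3 and 5, and the Myod1 call without Nup210 shRNA array 2 or 4 or Mef2c shRNA array 1. Adjusted p-values there ran up to 0.0772 for Myog and 0.0617 for Myod1. With Nup210 shRNA arrays 2, 4 and 5 left out together, Myog differed by 0.15 (adjusted p = 0.179) and Myod1 by 0.09 (adjusted p = 0.373), neither called. The other MEF2 factors were not called: Mef2a differed by 0.06 (adjusted p = 0.474) and Mef2d by -0.01 (adjusted p = 0.923). Myog and Myod1 were thus bright in every array of both groups, as in differentiating muscle cells.

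Of 27 myoblast fusion genes, 2 were higher (7.41%, beside 7.1% of all genes) and 5 lower (18.5%, beside 6.93%), with a median of 0.00. Myof, a ferlin of membrane repair and fusion, ran from 10.45 to 10.67 (median 10.60) against 11.02 to 11.16 (median 11.07), apart by -0.51 (adjusted p = 1.3e-07). The adhesion molecule Jam2 differed by 0.40 and the exchange factor Dock5 by -0.33, while the fusogen Mymk differed by -0.15 and Mymx, at -0.01, was not called. The Dock5 call was lost without Nup210 shRNA arrays 2, 4 and 5 (adjusted p = 0.221).

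Of 16 genes of the dystrophin complex and costamere, 2 were higher (12.5%, beside 7.1% of all genes) and 3 lower (18.75%, beside 6.93%). Dag1, dystroglycan, ran from 11.60 to 11.81 (median 11.69) against 11.33 to 11.48 (median 11.39), and Sgca, alpha-sarcoglycan, from 9.54 to 9.87 (median 9.81) against 9.91 to 10.25 (median 10.09). The groups stood apart in both genes, by 0.30 and -0.31. Sspn differed by 0.38, and a dimmer Sspn probe set by 0.19 (adjusted p = 0.163). Of 13 neuromuscular junction genes, 0 were higher and 4 lower (30.8%, beside 6.93% of all genes), all parts of the acetylcholine receptor or its anchor. Chrng, the fetal receptor subunit, ran from 11.21 to 11.37 (median 11.27) against 11.58 to 11.76 (median 11.73), apart by -0.42 (adjusted p = 5.58e-06). Chrnd, Rapsn and Chrnb1 differed by -0.23, -0.22 and -0.19.

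Fatty acid synthesis genes and LXR targets lay on opposite sides, and cholesterol synthesis genes were called in both directions, more of them higher. Genes that make fatty acids and cholesterol are driven by SREBP factors when sterol is low, and genes that export cholesterol or remodel membrane lipid are driven by the sterol-sensing receptor LXR. Of 14 fatty acid synthesis genes, 6 were higher (42.9%, beside 7.1% of all genes) and 0 lower, with a median of 0.13. Of 18 cholesterol synthesis genes, 7 were higher (38.9%) and 3 lower (16.7%, beside 6.93% of all genes), with a median of 0.17. Of 10 LXR targets, 0 were higher and 5 lower (50.0%, beside 6.93% of all genes), with a median of -0.22 and 0 of 10 differences positive. Srebf1 and Scd1 stand in both the fatty acid and the LXR list.

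Fads2, a fatty acid desaturase, ran from 9.66 to 10.14 (median 9.93) against 9.30 to 9.55 (median 9.40), and Acly, which makes the acetyl-CoA of the cytosol, ran from 9.68 to 9.90 (median 9.80) against 9.36 to 9.45 (median 9.40). Both stood apart, by 0.52 (adjusted p = 8.04e-05) and 0.39 (adjusted p = 7.21e-06). The elongase Elovl6 and fatty acid synthase (Fasn) differed by 0.42 and 0.33. In cholesterol synthesis, lanosterol synthase (Lss) ran from 8.13 to 8.49 (median 8.32) against 7.70 to 8.12 (median 7.87), and the SREBP brake Insig1 differed by 0.45. The isomerase Ebp lay the other way, from 9.51 to 10.01 (median 9.86) against 10.14 to 10.54 (median 10.40), a difference of -0.56, and Dhcr7 differed by -0.34. The count of 3 lower cholesterol genes became 1 without Nup210 shRNA array 4, and also without arrays 2, 4 and 5 together. The control mean of Lss was 8.60 and that of Fads2 10.25, above both groups.

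Abca1, the cholesterol exporter, ran from 6.31 to 6.74 (median 6.71) against 7.17 to 7.41 (median 7.24), with a control mean of 6.60. Mylip, the ligase that degrades the LDL receptor, ran from 8.45 to 8.79 (median 8.57) against 9.01 to 9.18 (median 9.07), with a control mean of 8.96. Lpcat3, which remodels phospholipids, ran from 10.33 to 10.57 (median 10.39) against 10.79 to 10.98 (median 10.86). In these 3 genes the groups stood apart, by -0.67 (adjusted p = 1.41e-05), -0.50 (adjusted p = 2.25e-06) and -0.46 (adjusted p = 5.76e-06). Abcg1 and Apoe differed by -0.45 and -0.28, while the LXR target Srebf1 at -0.12 was not called.

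Among growth factor genes, the IGF axis held 4 higher (28.6%, beside 7.1% of all genes) and 2 lower (14.3%, beside 6.93%) of 14 measured. Besides Igf2, its clearance receptor Igf2r differed by 0.49 and the binding protein Igfbp3 ran from 8.53 to 9.01 (median 8.76) against 7.82 to 8.30 (median 8.14), apart by 0.65 (adjusted p = 0.000174). Igfbp4 ran the other way, from 8.20 to 8.86 (median 8.52) against 8.91 to 9.18 (median 9.08), a difference of -0.54, and the signalling receptor Igf1r differed by -0.45. Among 17 imprinted growth genes 4 were higher, namely Igf2, Cdkn1c, Mest (0.50) and Igf2r, and 2 lower, Peg3 (-0.44) and Grb10 (-0.36). These shares of 23.5% and 11.8% stand beside 7.1% and 6.93% of all genes. The lower count became 1 without any of Nup210 shRNA arrays 1, 2 and 5 or Mef2c shRNA arrays 2, 3, 4 and 5.

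Notch signalling keeps muscle progenitors undifferentiated. Of 24 Notch and reserve cell genes, 7 were higher (29.2%, beside 7.1% of all genes) and 1 lower (4.17%, beside 6.93%). Jag1, a Notch ligand, ran from 7.60 to 7.98 (median 7.77) against 6.69 to 7.21 (median 7.12). The Notch targets Heyl and Hey1 ran from 8.40 to 8.64 (median 8.55) against 7.86 to 8.17 (median 8.02) and from 7.68 to 8.01 (median 7.87) against 7.16 to 7.64 (median 7.40). No gene of these overlapped between groups, and the differences were 0.73, 0.53 and 0.48. The receptors Notch3 and Notch1 differed by 0.35 and 0.18 and the targets Nrarp and Hes1 by 0.35 and 0.26, while the progenitor marker Pax7 at 0.10 was not called.

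In the TGF-beta and BMP response 9 of 25 genes were higher (36%, beside 7.1% of all genes) and 3 lower (12%, beside 6.93%). Their median was 0.09. Ccn2, a matricellular growth factor, ran from 8.17 to 9.19 (median 8.72) against 7.52 to 8.21 (median 7.83), overlapping slightly, with a difference of 0.85 (adjusted p = 0.00113), and a Ccn2 probe set below background gave 0.29 (adjusted p = 0.243, adjusted over all probe sets). Bmp4, a ligand, ran from 8.74 to 9.28 (median 9.03) against 9.67 to 10.12 (median 9.72), apart by -0.80 (adjusted p = 3.67e-05). Fst, the follistatin that binds activin and myostatin, differed by 0.42, the ligands Inhba and Tgfb2 by 0.38 and 0.35, and the targets Id2 and Id1 by 0.31 and 0.27. Tgfb1 differed by -0.33.

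Of 24 Wnt ligands and modulators, 2 were higher (8.33%) and 3 lower (12.5%), near the 7.1% and 6.93% of all genes, so the values that follow are of single genes. Sfrp4 ran from 6.98 to 7.90 (median 7.39) against 6.06 to 6.64 (median 6.51), while its relative Sfrp2 ran from 6.54 to 6.98 (median 6.71) against 7.24 to 7.68 (median 7.41). These secreted inhibitors thus stood apart in opposite directions, by 0.95 and -0.72, though a dimmer Sfrp2 probe set gave -0.12 (adjusted p = 0.498). The ligand Wnt10a differed by -0.75. The higher count became 1 without any of Nup210 shRNA arrays 1, 3, 4, 5 and 6 or Mef2c shRNA arrays 1, 3, 4 and 5, and the lower count became 5 without Nup210 shRNA array 4.

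Immediate early genes, which switch on within minutes of a stimulus, numbered 9 higher and 1 lower of 22. These shares of 40.9% and 4.55% stand beside 7.1% and 6.93% of all genes. Myc ran from 8.53 to 8.86 (median 8.67) against 8.03 to 8.11 (median 8.07), apart by 0.61 (adjusted p = 2.45e-07). Egr3 and Klf4 overlapped between groups and differed by 0.55 and 0.51, and Jun differed by 0.50. Fos at 0.05 and Egr1 at 0.00 were not called, and the nuclear receptor Nr4a1 differed by -0.33. Of 23 chemokine and NF-kB genes, 1 was higher (Tnfaip3, 0.24) and 2 lower (Cxcl12, -0.72, and Nfkbia, -0.27), a share of 13.0% beside 14.0% of all genes.

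In the extracellular matrix, 8 of 34 glycoprotein and remodelling genes were higher (23.5%, beside 7.1% of all genes) and 4 lower (11.8%, beside 6.93%). Fbln2, a basement membrane fibulin, ran from 9.64 to 9.81 (median 9.76) against 8.96 to 9.27 (median 9.12), apart by 0.63 (adjusted p = 1.16e-07). Postn, periostin, ran from 10.95 to 11.24 (median 11.18) against 10.14 to 10.81 (median 10.48), a difference of 0.66, and the proteoglycan Vcan differed by 0.49. Of 23 collagens, 5 were higher (21.7%, beside 7.1% of all genes) and 2 lower (8.7%, beside 6.93%). Col3a1, a fibrillar collagen, ran from 10.91 to 11.06 (median 10.96) against 10.40 to 10.56 (median 10.50), apart by 0.48 (adjusted p = 3.84e-07), and Col8a2 differed by -0.41. The lower glycoprotein count was 2 without Nup210 shRNA arrays 2, 4 and 5.

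Of 30 integrin and focal adhesion genes, 4 were higher (13.3%, beside 7.1% of all genes) and 5 lower (16.7%, beside 6.93%). The lower ones were integrin subunits, led by Itga11, a collagen receptor, which ran from 6.96 to 7.38 (median 7.12) against 7.48 to 8.11 (median 7.88), and Itga3, a laminin receptor, which ran from 7.76 to 8.30 (median 7.93) against 8.40 to 8.87 (median 8.52). Both stood apart, by -0.72 and -0.62, and Itgb8, Itgb5 and Itga9 differed by -0.36, -0.19 and -0.16. Tes, a focal adhesion adaptor, differed by 0.54, and a second Tes probe set by 0.30 (adjusted p = 0.0194). The higher count became 2 without any of Nup210 shRNA arrays 1, 4 and 5 or Mef2c shRNA arrays 3 and 6.

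Stress responses differed by small amounts. Of 22 genes of the unfolded protein response, which answers misfolded proteins in the endoplasmic reticulum, 8 were higher and 3 lower, with a median of 0.14. These shares of 36.4% and 13.6% stand beside 7.1% and 6.93% of all genes. Hyou1, a chaperone, ran from 9.52 to 9.69 (median 9.61) against 9.08 to 9.23 (median 9.15), apart by 0.44 (adjusted p = 5.18e-07), while the chaperone Hspa5 differed by 0.18 and the factor Xbp1 by -0.16. Of 21 genes of amino acid supply and the ATF4 response, 7 were higher (33.3%) and 3 lower (14.3%), beside the same shares of all genes. The serine pathway enzymes Shmt2 and Mthfd2 stood at 0.31 and 0.29 and Nupr1 at -0.30. Without Nup210 shRNA arrays 2, 4 and 5 the counts were 5 higher and 1 lower for the unfolded protein response and 4 and 1 for the ATF4 list. For Edem1, at 0.22, a dimmer probe set gave -0.05.

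Of 18 genes of atrophy, proteasome and autophagy, 2 were higher (11.1%, beside 7.1% of all genes) and 6 lower (33.3%, beside 6.93%), with a median of -0.01. Besides Dap, Trim63, the ubiquitin ligase MuRF1, and Psma1, a proteasome subunit, were the largest at -0.57 and -0.38, and the autophagy genes Map1lc3a, Map1lc3b and Ulk1 differed by -0.25, -0.24 and -0.17. Fbxo32, the other atrophy ligase, was not called at -0.15. The higher count became 1 without any of Nup210 shRNA arrays 2, 4 and 5 or any Mef2c shRNA array.

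Of 23 p53 targets, 2 were higher (8.7%, beside 7.1% of all genes) and 3 lower (13.0%, beside 6.93%), close to the background and resting on few genes. Ei24, a membrane protein of the endoplasmic reticulum, ran from 9.16 to 9.38 (median 9.33) against 9.84 to 10.05 (median 9.96), apart by -0.65 (adjusted p = 3.86e-08), and Sesn1 and Ddit4 differed by -0.27 and 0.27. The classic targets Cdkn1a at 0.05 and Mdm2 at 0.10 were not called, and the higher count became 5 without Nup210 shRNA array 3. Of 33 interferon response genes, which can answer viral RNA, 0 were higher and 4 lower (12.1%, beside 14.0% of all genes called in either direction). Isg20, a nuclease, ran from 6.99 to 7.54 (median 7.31) against 7.89 to 8.12 (median 8.0), apart by -0.70, while Ifit1 at 0.04 and Isg15 at -0.19 were not called. Mx1, below background with an adjusted p of 0.0498, lost its call without any of Nup210 shRNA arrays 1, 4, 5 and 6 or Mef2c shRNA arrays 1, 3, 5 and 6, with adjusted p-values up to 0.121, and 0.149 without Nup210 shRNA arrays 2, 4 and 5 together.

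Of 25 nuclear pore genes, Nup210 included, 5 were higher (20.0%, beside 7.1% of all genes) and 4 lower (16.0%, beside 6.93%). Nup43, a subunit of the outer ring, ran from 7.57 to 7.72 (median 7.67) against 7.13 to 7.38 (median 7.24), and Nup93, of the inner ring, ran from 9.03 to 9.31 (median 9.17) against 8.74 to 8.87 (median 8.84). Both stood apart, by 0.39 (adjusted p = 5.6e-05) and 0.35 (adjusted p = 5.13e-05). Nup214, on the cytoplasmic face, differed by -0.26, and the other membrane nucleoporins Pom121 at -0.10 and Ndc1 at 0.01 were not called. The lower count became 2 without Nup210 shRNA array 1, and the counts were 3 and 2 without arrays 2, 4 and 5.

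Of 21 nuclear envelope and lamina genes, 3 were higher (14.3%, beside 7.1% of all genes) and 2 lower (9.52%, beside 6.93%). Syne3, a nesprin, ran from 6.25 to 6.62 (median 6.39) against 6.79 to 6.98 (median 6.89), and Tmem38a, an envelope and reticulum cation channel of muscle, ran from 10.61 to 10.93 (median 10.75) against 11.03 to 11.25 (median 11.14). Both stood apart, by -0.45 and -0.36. Lamin B1 (Lmnb1) and nurim (Nrm) differed by 0.32 and 0.33, and Lmna by 0.13. The lower count became 4 without Nup210 shRNA array 2, and the higher count 1 without arrays 2, 4 and 5, where Nrm lost its call (adjusted p = 0.144).

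Markers of other cell types were mostly not called. Of 12 adipocyte markers, 0 were higher and 3 lower (25.0%, beside 6.93% of all genes). Lpl, the lipase that takes up lipoprotein fat, ran from 7.0 to 7.42 (median 7.20) against 7.63 to 8.30 (median 8.04), apart by -0.78 (adjusted p = 0.000294). Cebpa, a factor of fat and liver, differed by -0.49, and Plin4, which muscle also makes, by -0.32. Pparg at -0.10, Fabp4 at -0.14 and Adipoq at -0.10 were not called, and 7 of the 12 markers were above background. The mean level of the adipocyte markers ran from 5.76 to 5.87 in the Nup210 shRNA arrays and from 5.95 to 6.04 in the Mef2c shRNA arrays, and its part in other results was not tested. A dimmer Lpl probe set gave -0.23 (adjusted p = 0.188). The Plin4 call, at an adjusted p of 0.0419, was lost without any of Nup210 shRNA arrays 1, 2, 3 and 6 or Mef2c shRNA arrays 2, 4 and 5, with values up to 0.103.

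Smooth muscle markers numbered 1 higher (Cald1, 0.15) and 1 lower (Smtn, -0.31) of 11. These shares of 9.09% each lay near the 7.1% and 6.93% of all genes. The higher count became 0 without Nup210 shRNA array 4 or Mef2c shRNA array 3 or 6. Of 10 osteoblast and cartilage markers 1 was higher (Dmp1, 0.42), and of 10 fibroblast markers 1 was lower (Gsn, -0.34). A lower osteoblast marker was called without Nup210 shRNA array 6, and a lower neural marker without Mef2c shRNA array 3. Endothelial and neural lists of 10 genes each had 0 called by limma in the full set. Of 14 blood cell markers 1 was higher (7.14%, beside 7.1% of all genes), the mast cell protease Mcpt4. It differed by 1.31, below background in both groups. Kit, Cpa3 and Tpsb2, which define mast cells, differed by -0.10, -0.09 and -0.06 and were not called. Single called markers outside the rule for named genes were chosen after their values were seen.

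In 58 called genes, 18 higher and 40 lower, the control arrays lay between the 2 shRNA groups and overlapped neither. Stard3nl, which tethers endosomes to the endoplasmic reticulum, ran from 7.16 to 7.34 (median 7.28) against 6.30 to 6.55 (median 6.40), with a control mean of 6.90. Ubfd1, a ubiquitin-binding protein, ran from 7.81 to 8.13 (median 7.87) against 7.17 to 7.36 (median 7.30), with a control mean of 7.67. Jag1 and the helicase subunit Mcm7 had control means of 7.41 and 8.17, between shRNA group medians of 7.77 and 7.12 and of 8.45 and 7.90. The Nup210 shRNA arrays thus lay above and the Mef2c shRNA arrays below the controls in these genes, with differences of 0.86, 0.64, 0.73 and 0.57.

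Ampd1, Trim63, Usp2 and Gpr20 were placed the other way. Ampd1, the muscle AMP deaminase, ran from 5.19 to 5.83 (median 5.69) against 6.45 to 6.71 (median 6.63), with a control mean of 6.13. Trim63 ran from 7.79 to 7.92 (median 7.87) against 8.28 to 8.54 (median 8.46), with a control mean of 8.14. Usp2, a deubiquitinase, ran from 7.81 to 7.90 (median 7.86) against 8.43 to 8.63 (median 8.55), with a control mean of 8.23. Together with Gpr20, at a control mean of 7.10, they lay below the controls in Nup210 shRNA and above them in Mef2c shRNA. The differences between the shRNA groups were -0.99 (adjusted p = 1.24e-06), -0.57 (adjusted p = 3.53e-07), -0.68 (adjusted p = 1.24e-08) and -1.16 (adjusted p = 3.16e-07). No test against the controls enters these values, and the genes were picked for this pattern.

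**Figure D5:**
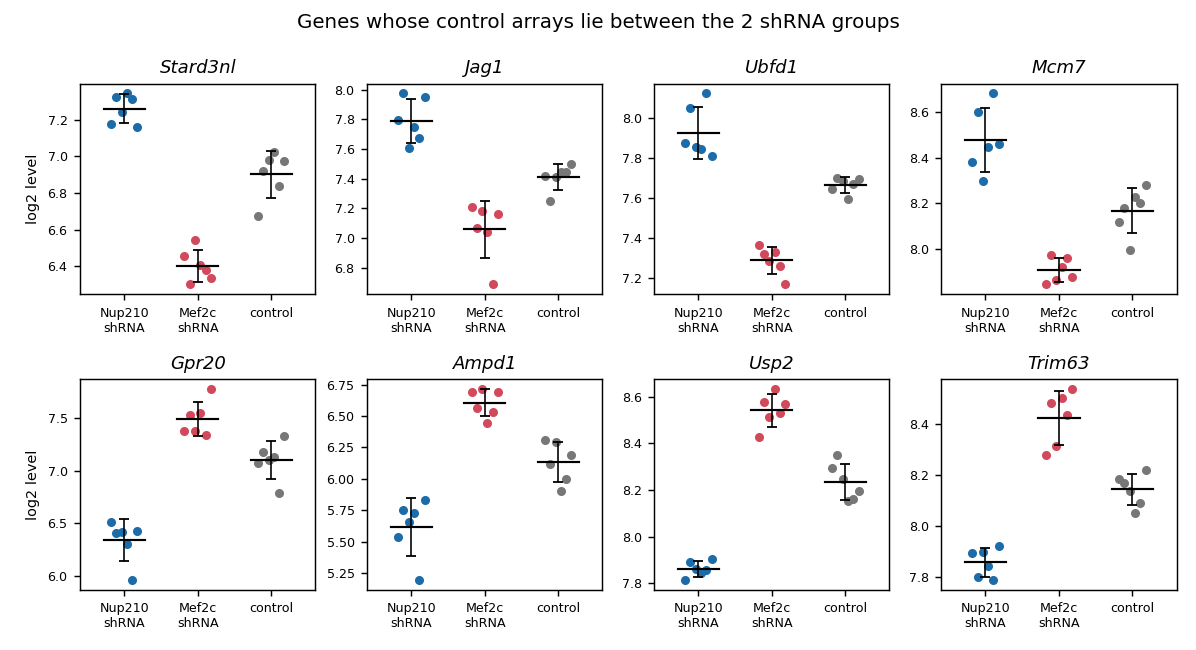
Log2 level of 8 genes in each array of the Nup210 shRNA, Mef2c shRNA and control groups, 6 points per group, with the mean (line) and SD (bar). The control points lie between the shRNA groups in all 8 panels, which were chosen for that, with Nup210 shRNA highest in the top row and lowest in the bottom row.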

How the data were processed

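Total RNA from 18 samples of C2C12 cells was measured on one-colour biotin-labelled arrays, 6 per shRNA group. The authors deposited log2 expression values per probe set, made with RMA and Partek per the submitters' processing notes. Neither versions, nor scan batches, nor a genome build are named there. RMA quantile-normalizes arrays and compresses differences of dim genes. Of 41345 probe sets, 23521 had 1 gene symbol in the platform annotation, 1814 several and 16010 none. Only the first were used, and RefSeq (GRCm38.p6) held 23328 of them and changed 0 symbols. Each gene was read by its probe set of highest mean over 18 arrays, and 1082 genes had more than 1.

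The fit, in limma 3.58.1 under R 4.3.3, gave each of the 3 groups of all 18 arrays a mean and used default moderation, so the controls entered only the spread (15 residual degrees of freedom). On simulated data of 22180 genes in this comparison the fit recovered 40.3% of genes changed by 0.25, 85.1% at 0.5 and 98.7% at 1 on the log2 scale, with 5.56% of calls false. Each of the 10 runs changed 200 genes per size, with independent normal noise and no effect shared by the genes of an array. The false share therefore holds for that simulation and is no estimate for these data. A total of 41 gene lists had 931 entries, 853 of them measured. The lists and genes described were chosen with earlier results of these data known. Named genes were the targets, Trip6, Mef2a, Mef2d, Myod1 and Myog, and the 12 largest called differences per direction without overlap and above background in the higher group. To these came the 3 largest called members of each list with 3 or more called, and 4 genes per direction with controls apart from and between both groups. Predicted genes and small RNAs were left out. Other settings tried were only 12 arrays, leaving out arrays, array weights, blocking on the replicate number, quantile or median normalization, no dim genes, other probe set rules, an unequal-variance test, a robust trended prior and stricter thresholds.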

Additional observations from a re-analysis of the deposited data

Results flagged for a closer look

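Of 250 groups of 6 arrays, 1 for each of the 125 named genes in each shRNA group, 11 held an array far from the others by Dixon's criterion, which chance gives in about 1 group of 20. In Mef2c shRNA array 5 these were Mef2c at 7.51 (next 7.88), Jag1 at 6.69 (next 7.04), Myom1 at 9.36 (next 9.42), Jam2 at 9.69 (next 9.88), Mthfd2 at 9.01 (next 9.33) and H1f5 at 5.27 (next 5.66), each the lowest, and Mest at 11.08 (next 10.77), the highest. In Mef2c shRNA array 6 they were Sfrp4 at 6.06 (next 6.46), the lowest, and Myf6 at 5.81 (next 5.55), the highest. In Nup210 shRNA array 5 they were Sgca at 9.54 (next 9.79), the lowest, and Mest at 11.42 (next 11.21), the highest. None of these genes lost its call when that array alone was left out.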

How the results depend on the processing

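Called genes numbered 1575 higher and 1538 lower, and no called gene turned direction while still called under any setting tried. At an adjusted p under 0.01 there were 971 and 928, and at 1.5-fold or more 99 and 109, of the same called genes by construction. Without Nup210 shRNA arrays 2, 4 and 5 there were 1093 and 995, which kept 1869 of the 3113. Leaving out 1 array at a time gave 1359 to 1516 higher and 1330 to 1517 lower, and the other settings 1228 to 1849. With the replicate number as a block, 1742 and 1786 were called and 2984 of the 3113 kept; among named genes only Mx1 lost its call. The labels do not say that a number marks a shared culture, and deviations of same-numbered arrays correlated at -0.05 to 0.22, with 2 of 6 above 0.1. As a hint from the data, 4 of 6 arrays in each group correlated best with their own number in the other. In the thick filament, MEF2 target and immediate early lists, array 5 had the lowest and array 6 the highest mean level in all 3 groups. This did not hold in every list. Mef2d, not called at -0.01, ranged from -0.036 to 0.0203 on leaving out 1 array, turning to 0.00173 without Mef2c shRNA array 4 and 0.0203 without array 6. In the unequal-variance test Nup210 (adjusted p = 0.0518), Insig1 (0.0679) and Igtp (0.069) lost their calls, as did Myod1, Myog, Ccnd2, Mx1 and Plin4. With only the 12 arrays of the shRNA groups in the fit, Myod1 (0.0595), Myog (0.0701), Plin4 (0.0713) and Mx1 (0.110) lost theirs, and with array weights Myod1 (0.0594) and Mx1 (0.0809). Myog (0.0794) and Mx1 (0.0852) also lost theirs after renewed quantile normalization, and Edem1 (0.341) with the mean of its probe sets. Without Nup210 shRNA arrays 2, 4 and 5, higher members also numbered 1 in the Wnt, p53 and atrophy lists, 2 among integrins and 0 among smooth muscle markers, and lower members 5 in the Wnt list, 1 in the imprinted list and 0 in oxidative phosphorylation. The cause of these changes was not tested. Array scanner files and signals over background were not used here, which limits what can be said of dim genes: 54 higher and 96 lower calls lay below the background guide in both groups.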
